A study of Mus musculus with 20 samples.

Results

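The transcriptional response of mouse macrophages to bacterial lipopolysaccharide (LPS) was measured in cells that had received a control siRNA. RNA sequencing values of 3 libraries treated with LPS were compared with those of 3 libraries treated with vehicle, which are 6 of the 20 libraries of the study, over all genes. All cells were bone marrow-derived macrophages of male wild-type C57BL/6J mice, grown for 7 days in medium containing supernatant of L929 cells, and no group carried a deletion or a transgene. Both groups were transfected with 50 nM of a control siRNA for 48 h in serum-free medium. During the last 6 h one group received 0.1% ethanol and 0.1% D-PBS (vehicle) and the other 0.1% ethanol and 100 ng/ml LPS. The remaining libraries of the study received an siRNA that targets Brg1 (the motor subunit of the BAF remodeller of chromatin) or LPS with dexamethasone. Of these, only the Brg1 siRNA vehicle and LPS libraries (3 each) are set beside the response below. All 20 libraries entered the filter and the fit, which gave a shared estimate of the spread, those with dexamethasone included. Whether replicates came from different mice or culture wells is not in the labels. The p-values therefore cover only the spread within the groups of these 20 libraries, which may be technical.

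LPS is a component of the outer membrane of Gram-negative bacteria. Macrophages bind it through CD14 and the TLR4 and MD-2 receptor complex, which signals through the adaptors MyD88 and TRIF to the transcription factors NF-kappaB, AP-1 and IRF3. These switch on cytokine and chemokine genes, and interferon beta made by the cells then acts back on them to raise interferon-stimulated genes.

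The vehicle libraries held 13694895 to 14442733 reads and the LPS libraries 15675979 to 16608382. Values are normalized counts, that is, read counts divided by the size factor of the library, and a gene's value is not scaled to its length, so that levels are compared between samples and not between genes. The cells had the markers of macrophages: Adgre1 (F4/80) had 29192, 30369 and 30169.7 normalized counts with vehicle and 59897, 58838 and 58051 with LPS, and Csf1r (the receptor of macrophage colony-stimulating factor) had 29419.9, 28914 and 29262 and 21305, 20819.8 and 21468. Of the 12 macrophage markers 4 were called higher (Adgre1, Itgam, Cd14 and Spi1) and 6 lower (Csf1r, Cd68, Fcgr1, Mertk, Mpeg1 and Lgals3), and Lyz2 and Aif1 did not pass. Elane, Prtn3 and Ly6g (neutrophils), Cd79a (B cells), Cd2 (T cells), Cpa3 (mast cells) and Dcn (fibroblasts) were at 0 in all 6 libraries. The summed level of the 11 neutrophil markers found in the table was 126.4 to 177.4 with vehicle and 281.8 to 329.7 with LPS, and that of the 4 B cell markers 629.8 to 703.1 and 71.0 to 108.8, most of it Ighm. Single genes of other lists rose in macrophage RNA: of the 5 mast cell and basophil markers in the table (summed level 97.1 to 149 with vehicle and 836 to 977 with LPS) Hdc, the histamine-forming enzyme, rose by 8.48, of the 5 fibroblast markers (5.02 to 8.29 and 964 to 1033) Pdgfrb rose by 8.27, and of the 8 dendritic cell markers (10.9 to 14.9 and 87.7 to 131) Ccr9 and Zbtb46 rose by 4.72 and 2.77. T and NK cell markers summed to 6.99 to 15.1 and 34.2 to 49.7, and erythroid markers stayed at or below 2.62. Mitochondrial transcripts took 1.94% to 2.22% of the reads with vehicle and 1.01% to 1.50% with LPS. Their direction depended on the scaling: of 13 transcripts, 0 were called higher and 0 lower with the authors' size factors. With plain library totals 0 were called higher and 10 lower. The part of these marker and mitochondrial levels in the results was not tested. In bulk RNA a lower level may come from fewer cells of a type or from less RNA per cell, which cannot be told apart.

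Of 12061 genes tested, 4341 were called higher with LPS (36.0%) and 4464 lower (37.0%), so that 73.0% changed in one direction or the other. A gene was called when its adjusted p was under 0.05 in limma's moderated test on log2(normalized count + 1), with Benjamini-Hochberg adjustment over all genes tested. A change of at least 1 on the log2 scale was reached by 2152 of the called rises (17.8% of the genes tested) and by 2744 of the called falls (22.8%). With the authors' size factors, large rises outnumbered large falls: 552 genes were higher by at least 3 and 516 lower, and 199 were higher by at least 5 and 81 lower. A fall cannot be larger than the vehicle level of the gene allows. The 3 vehicle and 3 LPS values did not overlap in 9365 genes (77.6%). By the authors' deposited table, adjusted p-values called 4437 genes higher and 4542 lower at the same threshold. Both analyses called 8621 genes, 0 of them in opposite directions. The third LPS library carries a label code from another number range than the other 5 libraries (MUC18 in place of MUC13), the meaning of which the labels do not give. Without the libraries of that range, 4252 genes were called higher and 4379 lower. Changes are on the log2(normalized count + 1) scale throughout, which understates those of low genes, and for a gene at 0 in a group the fitted value depends on the pseudocount.

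The split between rises and falls depends on the scaling. The authors' size factors bring the vehicle libraries to totals of 11966259 to 12005741 normalized counts and the LPS libraries to 17764440 to 18135709, and leave the median change over all genes at -0.04 on the log2 scale. Scaling to plain library totals moves that median to -0.61 and gives 2434 genes higher and 6850 lower. Changes are therefore to be read relative to the middle gene, and gene groups whose direction is not the same under both scalings are named as such below.

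**Figure D1:**
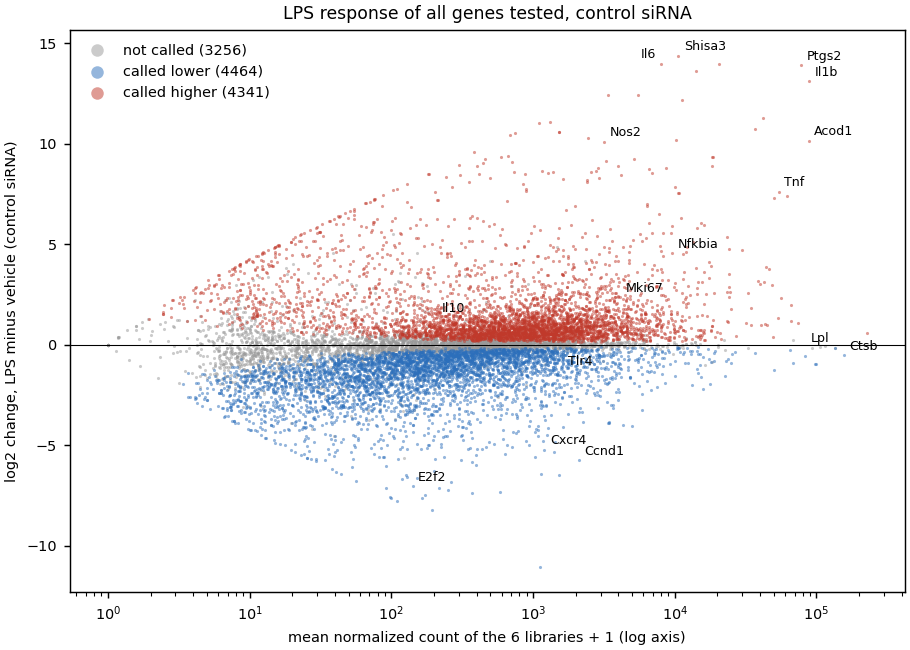
Each point is 1 of the 12061 genes tested, with the mean normalized count of the 6 control siRNA libraries plus 1 on a log axis and the log2 change with LPS on the vertical axis. Called rises (4341) reach 14.37 and called falls (4464) reach -11.04 on the log2(value + 1) scale, and the genes furthest above 0 include Shisa3, Il6, Ptgs2 and Il1b.

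Promoters of 7 responding genes are shown because they carry, within 220 bases before the RefSeq transcription start (GRCm38.p6), letters that match the binding motif of NF-kappaB, the motif of interferon-regulated factors (the interferon-stimulated response element, ISRE), or both. Capitals mark matches to GGGANTTNC (kappaB-type) or GAAANNGAA (ISRE-type) on either strand, where overlapping matches were all counted and no match of one motif overlapped one of the other in these runs, and each run is written 5′ to 3′ on the gene's strand and ends at the base before the start.
Nfkbia, inhibitor of NF-kappaB, chr12:55492648-55492867, minus strand: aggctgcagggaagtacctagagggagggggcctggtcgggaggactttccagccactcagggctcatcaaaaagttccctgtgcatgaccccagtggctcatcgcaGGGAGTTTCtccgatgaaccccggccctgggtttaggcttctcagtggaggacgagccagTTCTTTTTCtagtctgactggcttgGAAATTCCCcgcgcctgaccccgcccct
Cxcl10, chemokine for T cells, chr5:92348890-92349109, minus strand: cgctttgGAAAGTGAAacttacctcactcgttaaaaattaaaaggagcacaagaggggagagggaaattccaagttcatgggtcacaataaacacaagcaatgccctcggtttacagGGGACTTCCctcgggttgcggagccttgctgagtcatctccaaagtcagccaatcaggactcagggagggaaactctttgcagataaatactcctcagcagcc
Cxcl1, neutrophil chemokine, chr5:90891025-90891244, plus strand: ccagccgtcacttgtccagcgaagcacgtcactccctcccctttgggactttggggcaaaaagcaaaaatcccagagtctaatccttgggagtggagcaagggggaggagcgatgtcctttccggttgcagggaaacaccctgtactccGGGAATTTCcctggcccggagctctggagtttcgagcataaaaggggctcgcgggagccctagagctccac
Il6, cytokine, chr5:30012894-30013113, plus strand: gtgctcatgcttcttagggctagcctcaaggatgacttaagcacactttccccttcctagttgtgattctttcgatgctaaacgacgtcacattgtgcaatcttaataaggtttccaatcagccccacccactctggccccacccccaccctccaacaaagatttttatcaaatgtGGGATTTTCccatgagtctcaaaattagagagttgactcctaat
Ifit1, antiviral RNA-binding protein, chr19:34640669-34640888, plus strand: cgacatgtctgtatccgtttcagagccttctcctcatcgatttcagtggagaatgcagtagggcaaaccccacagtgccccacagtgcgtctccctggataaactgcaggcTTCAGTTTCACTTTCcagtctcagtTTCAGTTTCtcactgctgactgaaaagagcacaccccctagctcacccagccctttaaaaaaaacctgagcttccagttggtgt
Rsad2, antiviral enzyme, chr12:26456453-26456672, minus strand: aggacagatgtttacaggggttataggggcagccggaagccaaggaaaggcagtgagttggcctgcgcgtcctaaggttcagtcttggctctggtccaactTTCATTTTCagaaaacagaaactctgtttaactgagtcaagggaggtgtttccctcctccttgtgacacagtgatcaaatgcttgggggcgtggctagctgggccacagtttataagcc
Gbp2, guanylate-binding protein, chr3:142620443-142620662, plus strand: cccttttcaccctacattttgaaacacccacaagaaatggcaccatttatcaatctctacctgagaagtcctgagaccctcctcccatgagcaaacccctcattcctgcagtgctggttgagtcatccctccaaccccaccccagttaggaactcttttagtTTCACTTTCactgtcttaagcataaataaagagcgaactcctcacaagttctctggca

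Nfkbia held kappaB-type matches that begin 113 and 28 bases before the start and an ISRE-type match at 53, and Cxcl10 a kappaB-type match at 103 and an ISRE-type match at 213. The kappaB-type match of Cxcl1 lay at 71 and that of Il6 at 44, while Ifit1 held ISRE-type matches at 109, 103 and 84, of which the first 2 overlap. Over windows from 250 bases before to 50 after the start, found for 9368 of the genes tested, the kappaB-type motif occurred in 5.99% of genes and the ISRE-type motif in 8.91%. Among the 711 of these genes called higher by at least 2 on the log2 scale 64 (kappaB-type) and 95 (ISRE-type) held a match, the second being 13.4%, and among the 912 called lower by at least 2 the numbers were 50 and 64 (5.48% and 7.02%). By role the shares ranged more widely: 8 of 11 genes for NF-kappaB subunits and inhibitors (72.7%) and 5 of 9 CXC chemokine genes (55.6%) had a kappaB-type match, against 1 of 43 interferon-stimulated antiviral genes (2.33%). An ISRE-type match was found in 24 of those 43 (55.8%) and in 9 of 9 guanylate-binding and immunity-related GTPase genes. For each motif these are the lists with the largest shares, and other lists with mostly called rises had few matches. A kappaB-type match was found in 2 of 20 cytokine and growth factor genes and 1 of 9 CC chemokine genes. The nitric oxide, arginine and itaconate genes had it in 0 of 8. Cytosolic ribosomal protein genes, whose direction depended on the scaling, had an ISRE-type match in 7 of 26 (26.9%). These shares are a description of letters in the windows, with no test, and the lists were read after the shares over all genes.

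LPS raised most genes of its own receptor pathway but not the receptor. Tlr4, the signalling receptor (ENSMUSG00000039005, chromosome 4, 66827584 to 66930284), had 2156, 2394 and 2378 normalized counts with vehicle and 1001, 989 and 849 with LPS. Every LPS library lay below every vehicle library, a fall of 1.29 on the log2 scale (SE 0.130, limma adjusted p = 6.05e-08). Cd14, the co-receptor that hands LPS to it, went from 4288, 3691 and 3852 to 44396, 40606 and 48914, a 11.3-fold rise (limma adjusted p = 2.56e-15). In the list of the LPS receptor and adaptors, 21 of 28 members were called higher and 4 lower, with a median change of 1.13 against -0.04 over all genes. The largest rises were those of Ripk2 (a kinase that signals to NF-kappaB, 4.22), Peli1 (a ubiquitin ligase, 4.21) and Irak3 (an inhibitor of the pathway, 3.76). The adaptors Myd88 and Ticam1 (TRIF) rose by 1.76 and 1.53, and the kinases Irak4 and Irak1 fell by 0.65 and 0.38.

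Every one of the 14 genes for NF-kappaB subunits and inhibitors was called higher, with a median change of 3.05, and all 14 were also called higher with plain library totals. Nfkbia, which encodes the inhibitor IkappaB-alpha and whose promoter is printed above, had 856, 781 and 723 normalized counts with vehicle and 17777, 17246 and 20039 with LPS. The groups were 23.3-fold apart by their means and no library came near the other group (limma adjusted p = 3.11e-19). Among the inhibitors the rises ran from 1.39 (Nfkbid) through 5.20 (Nfkbiz, the nuclear IkappaB-zeta) to 5.97 (Tnfaip3, the ubiquitin-editing enzyme A20). Among the subunits they ran from 1.37 (Rela) to 4.03 (Nfkb2).

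Immediate early and AP-1 genes moved in both directions at 6 h: 16 of 24 members were called higher and 5 lower. The rises were led by Nr4a3 (an orphan nuclear receptor), Maff (a small MAF factor, 7.65), Ier3 (5.91) and Batf (an AP-1 partner, 5.58). Nr4a3 had 3 reads in the vehicle libraries together, and its LPS to vehicle ratio was 718 (95% counting interval 245 to 3486). Fos and Jun, the classic AP-1 pair, were lower: Fos had 2725, 2664 and 2830.2 normalized counts with vehicle and 442, 407 and 489.9 with LPS, a fall of 2.62, and Jun fell by 2.54. Klf2, an endothelial and myeloid zinc finger factor, fell by 3.29, while Junb rose by 3.29. Myc went from 279 ± 24.2 to 286 ± 33.1 (mean ± SD, n = 3) and was not called (limma adjusted p = 0.834).

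Of 15 IRF and STAT genes, 11 were called higher and 2 lower, but 6 higher and 6 lower with plain library totals. Irf1 (the IRF induced by NF-kappaB) rose by 3.74, Stat5a by 3.53 and Stat3 by 1.66. Irf7, which amplifies the interferon response, had 4319, 5016 and 3491 normalized counts with vehicle and 5597, 5687 and 6437 with LPS, a rise of 0.48 (limma adjusted p = 0.000580) that was not called with plain library totals (-0.10). Irf8, a lineage factor of macrophages, fell by 1.23, and Stat6, which carries the interleukin 4 signal, by 1.05.

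Feedback inhibitors of cytokine and kinase signalling were mostly higher: 15 of 23 members were called higher and 5 lower, with a median change of 2.51. Socs3, which blocks signalling of the interleukin 6 receptor, had 18.4, 11.6 and 21.0 normalized counts with vehicle and 19958, 19657 and 21753 with LPS, a 1204-fold rise. Cish (9.10), Zc3h12c (8.59), Dusp2 (a phosphatase of MAP kinases, 6.72) and Il1rn (the interleukin 1 receptor antagonist, 4.68) rose with it. Zfp36, which encodes the mRNA-decay factor tristetraprolin, rose by 2.94, whereas its paralogs Zfp36l1 and Zfp36l2 fell by 4.92 and 3.17.

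**Figure D2:**
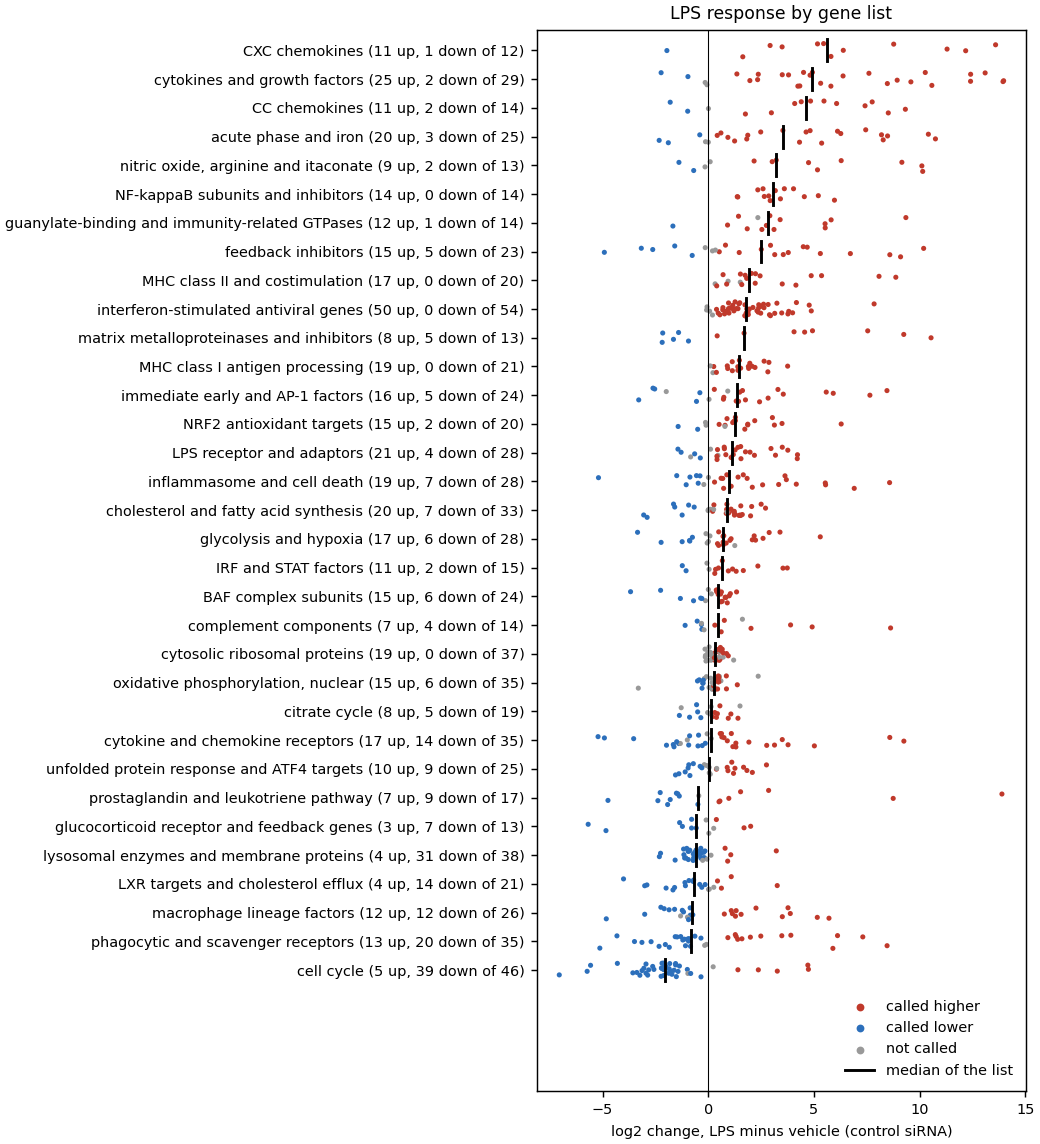
Each point is a gene of 1 of 33 lists, with the log2 change (LPS minus vehicle, control siRNA) on the horizontal axis, coloured by its call, and the black bar is the median of the list. Medians run from 5.63 for CXC chemokines to -2.04 for cell cycle genes.

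Cytokine genes gave many of the largest changes. Il6 (ENSMUSG00000025746, chromosome 5, 30013114 to 30019981) had 0 reads in each of the vehicle libraries and 15424, 16803 and 16039 normalized counts with LPS. Against a floor of 3 reads over the vehicle group, which is 0.846 normalized counts, this is at least 19017-fold higher (limma adjusted p = 9.56e-23). Il1b (ENSMUSG00000027398, chromosome 2, 129364570 to 129371139), the inflammasome-processed interleukin 1 beta, went from 19.3, 14.1 and 26.2 to 188868, 177982 and 166720.0, a 8959.9-fold rise. Tnf, the early mediator, was already present with vehicle at 535, 542 and 587 and reached 105469, 111627 and 105988, a 194-fold rise (limma adjusted p = 5.45e-24). In none of these did an LPS library come near a vehicle library.

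In the whole list of cytokines and growth factors 25 of 29 members were called higher and 2 lower, with a median change of 4.93 (5.03 with the 6 genes at 0 in vehicle placed at their bound). The subunits of interleukin 12 and its relatives appeared together. Il12b, the shared p40 subunit, went from 0, 3.31 and 0.874 to 12334, 10064 and 10459 normalized counts. Il12a and Il23a, the partners that make interleukin 12 and interleukin 23 with it, were at 0 in all vehicle libraries and at 811, 768 and 724 and 460.0, 316 and 305 with LPS, at least 907-fold and 426-fold higher. Il27 and Ebi3, which pair to interleukin 27, rose by 10.27 and 3.50.

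Il10, the main anti-inflammatory cytokine, had 139.8, 118 and 91.7 normalized counts with vehicle and 285, 292 and 308 with LPS. The groups did not overlap, and the rise was 1.35 on the log2 scale (SE 0.190, limma adjusted p = 4.38e-06). Ifnb1 (interferon beta) was at 0 in all vehicle libraries and at 25.9, 35.9 and 21.4 with LPS, at least 32.8-fold higher. Csf2 (granulocyte-macrophage colony-stimulating factor) had 1 read over the vehicle group against 655, 620.1 and 528 normalized counts with LPS, a ratio of 2127 (95% counting interval 381 to 84047). Csf3, at 0 with vehicle, was at least 98.6-fold higher. The growth factors Igf1 and Vegfa fell by 0.97 and 2.23, and Tgfb1 did not pass (2816 ± 66.5 with vehicle and 2691 ± 24.7 with LPS, limma adjusted p = 0.440).

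**Figure D3:**
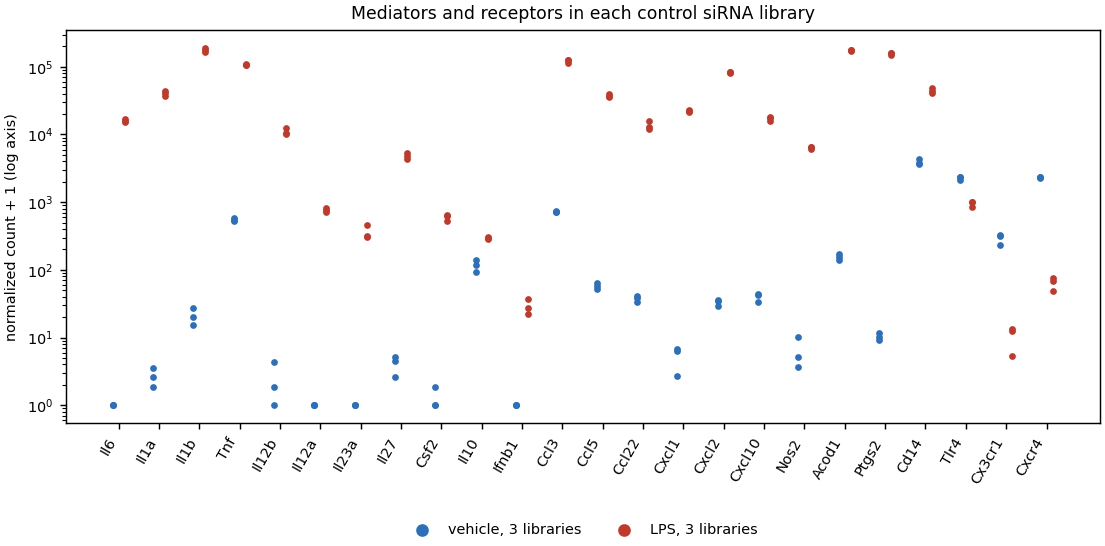
Normalized count plus 1 (log axis) of 24 mediator and receptor genes in each of the 3 vehicle and 3 LPS libraries with control siRNA. The groups are apart in each of the 24 genes, with LPS above vehicle in all of them except Tlr4, Cx3cr1 and Cxcr4.

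Chemokine genes rose with few exceptions. Among the CC chemokines 11 of 14 members were called higher and 2 lower (1 lower without LPS replicate 3), with a median of 4.62, and among the CXC chemokines 11 of 12 were higher and 1 lower, with a median of 5.63. Ccl5, which draws T cells, had 51.9, 57.2 and 63.8 normalized counts with vehicle and 39054, 35986 and 37309 with LPS, a 650.0-fold rise. Cxcl10, the interferon-inducible chemokine whose promoter held both motifs, had 42.7, 41.4 and 32.3 and 17459, 16079 and 18337, a 445-fold rise. Cxcl1, a neutrophil chemokine, went from 1.67, 5.80 and 5.24 to 22262, 23261 and 21776, and its relatives Cxcl3 and Cxcl2 rose by 13.59 and 11.30. Ccl22 (8.52), Ccl3 (7.42) and Ccl4 (6.07) rose as well, and Ccl17, at 0 in the vehicle libraries, was at least 258-fold higher. Cxcl14 fell by 1.96 and Ccl27a by 1.80, where 57.0% of the 31-base words of the transcript occur in transcripts of other genes too, so that its reads may be shared.

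Receptors for these signals did not move as a group: 17 of 35 were called higher and 14 lower, the latter close to the 37.0% over all genes tested, and with plain library totals 13 were higher and 18 lower. Formyl peptide receptors, which sense bacterial peptides, were higher, Fpr2 by 8.59 (43.0% of its words shared with other genes) and Fpr1 at a ratio of 1632 (95% counting interval 451 to 13485) over 2 vehicle reads. Tnfrsf1b, a tumour necrosis factor receptor, rose by 3.13 and Il15ra by 3.50. The receptors that position monocytes and macrophages fell: Cxcr4 had 2374, 2297 and 2344 normalized counts with vehicle and 47.4, 75.2 and 66.3 with LPS, a 37.1-fold difference. Cx3cr1 and Ccr2 fell by 4.92 and 3.53. Csf1r, whose values are given above, fell by 0.46 (limma adjusted p = 3.52e-06), and the complement peptide receptor C3ar1 by 1.62.

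Interferon-stimulated antiviral genes rose nearly throughout: 50 of 54 were called higher and 0 lower, with a median of 1.78 (45 higher and 5 lower with plain library totals). Rsad2 (viperin) had 1704, 1937 and 1474 normalized counts with vehicle and 45919, 47005 and 46163 with LPS, a rise of 4.77. Ifit1, with its 3 ISRE-type matches, had 1955, 2116 and 1609 and 26120.3, 27021 and 25785, a rise of 3.80 (limma adjusted p = 2.43e-16). Ifi205, a nuclear DNA-binding protein of the same response (22.1% of its words shared), had the largest change, 7.84, followed by Oasl1 (4.87), Rsad2 and Mx1 (4.17). The 4 that did not pass were Oas2, Oas3, Ifit3b and Ifi207, with changes between -0.08 and 0.20, and Oas2 was called higher when vehicle replicate 2 was left out (limma adjusted p = 0.00740).

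Of the guanylate-binding and immunity-related GTPases, which attack vacuoles of intracellular pathogens, 12 of 14 were called higher and 1 lower, with a median of 2.83. Gbp2 had 553, 529 and 426 normalized counts with vehicle and 27319, 30075 and 26993 with LPS, a 55.9-fold rise. Gbp2 rose by 5.81 on the log2 scale, Gbp2b by 9.35, Gbp3 by 5.53 and Gbp7 by 5.52, and Igtp and Irgm1 by 2.75 and 1.43. Gbp8 (31.1% shared) fell by 1.68. Gbp4 was at 0 in all vehicle libraries and at 129.6, 0 and 0 in the LPS libraries, and did not pass (limma adjusted p = 0.229). Tgtp1 and Tgtp2 have 84.4% and 90.5% of shared 31-base words, and their values of 3.11 and 2.53 are therefore uncertain.

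Among inflammasome and cell death genes 19 of 28 members were called higher and 7 lower. Nlrp3, an inflammasome sensor, had 345, 372 and 336 normalized counts with vehicle and 15740.5, 16281 and 16884 with LPS, a 46.4-fold rise. Its effectors Casp1 and Gsdmd (gasdermin D) rose by 1.65 and 1.84, and Casp4, the cytosolic LPS sensor (caspase-11), by 2.57. Nlrp1b, another sensor, fell by 5.20, from 742, 865 and 745 to 28.2, 18.5 and 16.0. Survival genes were among the rises: Cflar (3.63), Birc3 (3.33) and the Bcl2a1 copies, whose reads may be shared between them (Bcl2a1b shares 88.8% of its words).

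Genes of nitric oxide and itaconate production were among the large rises. Nos2 (inducible nitric oxide synthase, ENSMUSG00000020826, chromosome 11, 78920787 to 78960254) had 9.21, 4.14 and 2.62 normalized counts with vehicle and 6425, 6107 and 6449.7 with LPS, a 1189-fold rise (limma adjusted p = 1.09e-15). Acod1, which makes itaconate (ENSMUSG00000022126, chromosome 14, 103046977 to 103056573), had 139, 172 and 154 and 172230.0, 175333 and 180051, a 1134-fold rise. Slc7a2, the arginine importer, rose by 9.16, Slc7a11, the cystine importer, by 6.29 and Ass1, which recycles citrulline, by 3.22 (43.1% of its words shared). In that list 9 of 13 members were called higher and 2 lower.

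The prostaglandin and leukotriene list moved in both directions, with 7 of its 17 genes called higher and 9 lower. Ptgs2 (cyclooxygenase 2, ENSMUSG00000032487, chromosome 1, 150100031 to 150108227) had 9.21, 8.29 and 10.5 normalized counts with vehicle and 159344, 160167 and 150082 with LPS, a 16784-fold rise. Ptges, which makes prostaglandin E2, rose by 8.75 and Pla2g4a, which frees arachidonic acid, by 2.85. In the leukotriene branch Alox5 fell by 2.28, Alox5ap by 1.37, and Lta4h by 1.51, and of the prostanoid enzymes Tbxas1 fell by 1.80 (thromboxane synthase), Hpgds by 1.93 (prostaglandin D synthase) and Ptgs1 by 2.39 (cyclooxygenase 1). Hpgd, which inactivates prostaglandins, fell furthest, from 459, 343 and 330.3 to 11.3, 16.2 and 11.8.

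Most acute phase and iron genes were higher, and metalloproteinase and complement genes moved in both directions. Among acute phase and iron genes 20 of 25 members were called higher and 3 lower, with a median of 3.53. Saa3, the macrophage serum amyloid, had 41.8, 51.4 and 33.2 normalized counts with vehicle and 68680.1, 71749 and 78985 with LPS. Lcn2, which binds bacterial iron carriers, rose by 8.48 and Cp (ceruloplasmin) by 8.19, whereas the iron exporter Slc40a1 (ferroportin) fell by 1.89 and Plau (urokinase) by 2.33. Of 13 metalloproteinase and inhibitor genes 8 were called higher and 5 lower, the latter a share close to the 37.0% over all genes tested. Mmp14 rose by 9.25 and Mmp13 by 7.54, and Adam8 fell by 2.18 and the inhibitor Timp2 by 1.65. Of 14 complement genes 7 were higher and 4 lower, but 5 and 6 with plain library totals. Cfb (factor B) rose by 8.62, although 75.5% of its words occur in other genes' transcripts, and C3 by 3.89, while C1qa, C1qb and C1qc fell by 0.33 to 0.53.

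Genes of antigen presentation were called higher in 19 of 21 cases for class I and 17 of 20 for class II and costimulation, with 0 lower in either list (3 and 0 lower with plain library totals). Cd40, the costimulatory receptor, had 75.3, 70.4 and 86.5 normalized counts with vehicle and 36006, 34297 and 39692 with LPS, a 474-fold rise. Icam1 (5.36), Cd274 (PD-L1, 4.87) and Icosl (4.14) rose too, while Cd86 and Cd80 rose by 1.82 and 1.58. Of the class I pathway the peptide transporter subunits Tap1 and Tap2 rose by 2.21 and 2.64 and the immunoproteasome subunits Psmb8, Psmb9 and Psmb10 by 1.47, 1.40 and 1.96. B2m, the class I light chain, did not pass (63020.1 ± 4011 and 73277 ± 5616, limma adjusted p = 0.0615), but was called higher when LPS replicate 3 was left out (limma adjusted p = 0.0355).

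Phagocytic and scavenger receptors moved in both directions: 13 of 35 were called higher, a share close to the 36.0% over all genes tested, and 20 lower. Marco, a scavenger receptor for bacteria, had 23.4, 22.4 and 22.7 normalized counts with vehicle and 7939, 8314 and 8924 with LPS, a 367-fold rise. Clec4e (Mincle, a receptor for mycobacterial glycolipid) rose by 7.31 and the inhibitory Fc receptor Fcgr2b by 5.89. The activating Fc receptors Fcgr1 and Fcgr3 fell by 2.03 and 1.13, and the receptors of homeostatic clearance Mrc1, Trem2, Mertk and Stab1 by 1.85, 1.31, 0.94 and 1.57. Cd300lf fell by 5.13, from 364, 363 and 310.2 to 11.3, 4.63 and 12.8.

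Most lysosomal genes fell: 31 of 38 were called lower and 4 higher, with a median of -0.58. Ctsd (cathepsin D, 33.2% of its words shared) had 133635, 128247 and 131115 normalized counts with vehicle and 66812, 67638 and 68230.2 with LPS, a fall of 0.96. Ctsb and Lipa (lysosomal acid lipase) fell by 0.54 and 1.57, and Tfeb, a transcription factor of lysosomal genes, by 2.32 from 522 ± 34.4 to 105 ± 18.2. The rises were those of Ctsc (3.22), Ctsz (0.91) and the proton pump subunits Atp6v1h (1.06) and Atp6v0d1 (0.79), while the subunit Atp6v0d2 fell by 2.26.

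Of the LXR target and efflux list, 14 of 21 were called lower and 4 higher: Abcg1, a cholesterol exporter, fell by 1.67, Plin2, the lipid droplet coat, by 2.00, Pparg by 3.01 and Nceh1, a cholesterol ester hydrolase, by 4.01. Abca1 went from 3682 ± 358 to 4389 ± 33.5 and did not pass (limma adjusted p = 0.0934). Genes of cholesterol and fatty acid synthesis were higher in 20 of 33 cases and lower in 7 (15 and 12 with plain library totals), with Hsd17b7 and Idi1, enzymes of cholesterol synthesis, up by 2.50 and 2.00, but Dhcr7 and Scd2 down by 3.06 and 2.90.

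Glycolysis and hypoxia genes were called higher in 17 of 28 cases and lower in 6, and 10 and 9 with plain library totals. The largest rises were in uptake and control, Slc2a6 (5.30), Pfkfb3 (3.39), the glucose transporter Slc2a1 (2.88), Hif1a (2.23) and Hk2 (2.17), and the transporter Slc2a3 fell by 3.35. For nuclear genes of oxidative phosphorylation the direction depended on the scaling: 15 of 35 were higher and 6 lower by the authors' size factors but 3 and 19 by plain library totals, and citrate cycle genes 8 and 5 of 19 against 3 and 13. Idh2 (mitochondrial isocitrate dehydrogenase) fell by 1.37 under the first scaling and was lower by both. NRF2 targets, which handle oxidative stress, were higher in 15 of 20 cases and lower in 2, with Txnrd1 (3.49), Gsr (3.13) and Sqstm1 (3.03) among the rises. Unfolded protein response and ATF4 targets were higher in 10 of 25 cases and lower in 9, shares close to those over all genes tested (36.0% and 37.0%), or 8 and 14 with plain library totals.

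Most cell cycle genes fell: 39 of 46 were called lower and 5 higher, with a median of -2.04, and the counts were the same with plain library totals. Ccnd1 (cyclin D1) had 4019, 4156 and 4267 normalized counts with vehicle and 85.7, 74.0 and 71.7 with LPS, a 53.8-fold difference. Cyclin E2 (Ccne2) fell by 5.57, Rrm2, which makes deoxynucleotides, by 4.30 and the replication helicase subunit Mcm2 by 3.24. Top2a and Cdk1 fell by 1.55 and 2.01. The 5 rises were Cdkn1a (the inhibitor p21, 4.71), Ccnd2 (4.74), Ccne1 (3.26), Mki67 (2.37) and E2f8 (1.40). Mki67, usually read as a marker of dividing cells, rose while Top2a, Cdk1 and the replication genes fell, from 1218, 1482 and 1333 to 6922, 7603 and 6271. E2f2 had 3 reads in the LPS libraries together, and its vehicle to LPS ratio was 251 (95% counting interval 85.6 to 1219).

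Among lineage factors of macrophages 12 of 26 were called higher and 12 lower, with a median change of -0.79, but 11 and 14 with plain library totals. Spi1 (PU.1) rose by 1.28, Cebpb and Cebpd by 3.50 and 3.77 and Tfec by 5.16. Cebpa, a factor of myeloid differentiation, fell by 2.09. Nr3c1, the glucocorticoid receptor, rose by 1.69, while Tsc22d3 (GILZ), a target that mediates its anti-inflammatory action, fell by 4.84. Smarca4, which encodes Brg1, had 1476, 1538 and 1626 and 2989.8, 2899 and 2751, a rise of 0.90 (limma adjusted p = 2.55e-08). Of its BAF partners 15 of 24 tested, Smarca4 included, were higher and 6 lower, but 5 and 8 with plain library totals. The other ATPase of the complex, Smarca2 (Brm), fell by 3.68, from 531, 580.0 and 550.5 to 45.1, 47.4 and 35.3. Cytosolic ribosomal protein genes were called higher in 19 of 37 cases and lower in 0, which turned to 0 higher and 17 lower with plain library totals. Without vehicle replicate 2 the number called higher was 10, and without LPS replicate 3 it was 9.

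Some genes were found in 1 group only. With 0 reads in all 3 vehicle libraries and at least 100 normalized counts in all 3 LPS libraries there were 18 genes, among them, beside Il6, Il12a, Il23a and Ccl17, Shisa3 (a transmembrane adaptor, ENSMUSG00000050010, chromosome 5, 67607882 to 67623552) at 21629, 21400.5 and 20543. Shisa3 was at least 25048-fold higher and had the largest change of all genes. Adamts4 (an aggrecanase) was at least 1766-fold higher, Serpinb2 (plasminogen activator inhibitor 2) 1611-fold, Fscn1 (the actin bundler fascin) 2618-fold, Ptx3 (a soluble pattern receptor) 205-fold and Has1 (a hyaluronan synthase) 177-fold. Others were Adm, Bmp1, Cd247, Sh2d4a, Syt7, Tmem200b and Tnn. Edn1 (endothelin 1) and Gfi1 (a myeloid repressor) had 1 read each over the vehicle group, with ratios of 23827 (95% counting interval 4276 to 941157) and 9400.0 (95% counting interval 1687 to 371332).

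In the reverse direction 5 genes had 0 reads in all LPS libraries: Kif20b, Plekhg3, 2900026A02Rik, Gm14440 and Tyrobp. All the words of Gm14440 occur in other genes as well. Tyrobp, the adaptor DAP12 of many myeloid receptors, had 2920.2, 2562 and 1248 normalized counts with vehicle. Its change of -11.04 (SE 2.65, limma adjusted p = 0.00114) was the lowest of all genes. Tyrobp read 218, 0 and 0 in the vehicle libraries with Brg1 siRNA, where libraries of one treatment ranged from 0 to 218. The size of its fall with LPS is therefore uncertain, and the reason for this spread was not tested. Plekhg3 had 235, 226 and 192 with vehicle and 255, 256 and 252 with Brg1 siRNA and vehicle, which lie close together, and was at least 195-fold lower with LPS. The change of Plekhg3 (-7.77) nevertheless had an SE of 0.845 in the fit of all 6 groups, against 0.278 for Rasgrp3. Steadier falls among the 20 largest were those of Rasgrp3 (an activator of RAS), from 1136, 1193 and 1177 to 5.64, 5.78 and 7.49, Cnr2 (a cannabinoid receptor), from 718, 759.9 and 748 to 1.13, 4.63 and 6.42, and Gcnt1 (a glycosyltransferase), from 2979, 3157 and 2939 to 23.7, 48.6 and 29.9. In 65 genes of the table a library at 0 stood beside another of the same group at 100 or more. Such values include Ndufa9, an oxidative phosphorylation gene with 367, 255 and 0 with vehicle and 0, 94.9 and 0 with LPS, which did not pass (limma adjusted p = 0.240) but was called lower when vehicle replicate 3 was left out (limma adjusted p = 0.0348).

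The 15 genes that gained most took 0.716% to 0.737% of a library's normalized counts with vehicle and 8.82% to 8.96% with LPS. Il1b went from 0.000166% to 0.992%, Acod1 from 0.00129% to 0.981% and Ptgs2 from 7.78e-05% to 0.873%. Clec4e, Tnfaip2, Plek (pleckstrin), Cybb (a subunit of the phagocyte oxidase), Lcp1 (plastin) and Clic4 were also among them. The 15 genes that lost most fell from 12.0% to 12.4% down to 5.70% to 5.91%, with the lysosomal genes Ctsb (1.53% to 0.706%), Ctsd and Psap first, and Lpl and Lyz2 also among the 15. All genes called higher by at least 1 together took 13.8% to 14.2% with vehicle and 46.1% to 46.5% with LPS, and those called lower by at least 1 took 15.4% to 15.8% and 3.07% to 3.09%. A share depends on transcript length as well as on the number of molecules, and some of the losing genes, such as Lpl (-0.15), changed little by normalized counts.

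**Figure D4:**
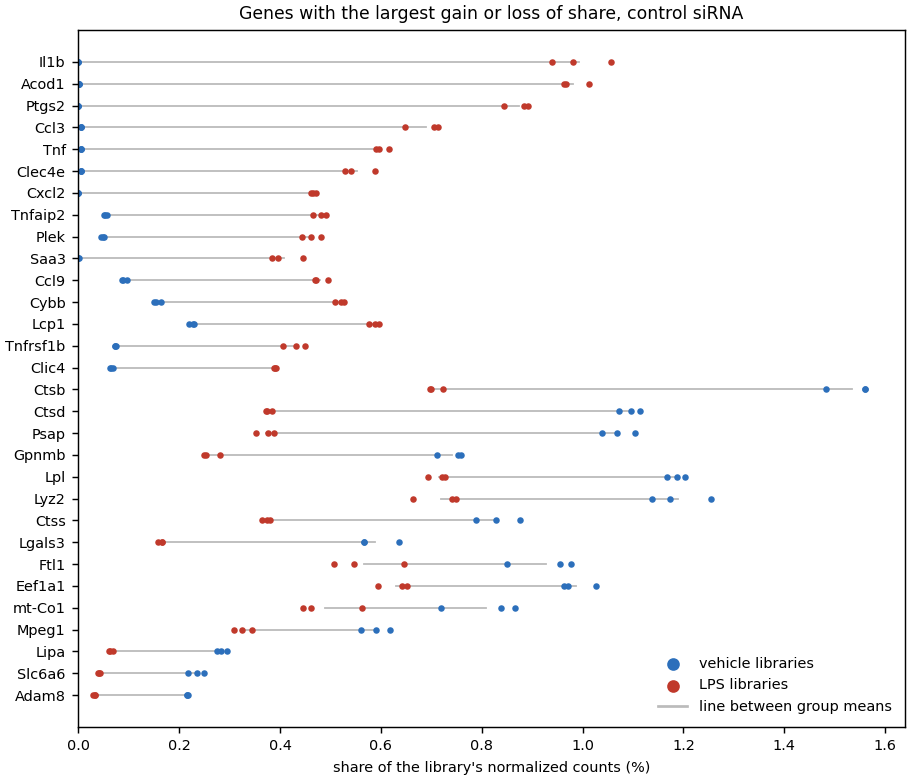
Share of each library's normalized counts (%) taken by the 15 genes with the largest gain and the 15 with the largest loss, as points for the 3 vehicle and 3 LPS libraries with control siRNA and a line between the group means. Il1b reaches 0.992% on average with LPS, and Ctsb drops to 0.706%.

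Neighbouring genes were also examined. Runs of at least 4 neighbouring tested genes that all rose by at least 1 on the log2 scale numbered 51 and held 249 genes, and such runs of falls numbered 64 and held 293 genes. The longest run of rises held 9 genes on chromosome 5 (GRCm38, 90759360 to 91148432): Cxcl5, Ppbp, Pf4, Cxcl3, Cxcl1, Cxcl2, Mthfd2l, Ereg and Areg, of which the last 2 encode growth factors. On chromosome 11 Ccl2, Ccl7 and Ccl12 stood in 1 run of 7 genes and Ccl3 and Ccl4 in another, and on chromosome 17 Psmb9, Tap1, Psmb8, Tap2, H2-Ob and H2-Ab1 formed a run of 6. The longest run of falls held 8 genes on chromosome 11 (114675431 to 115027012), among them the receptors Cd300a, Cd300lb, Cd300ld and Cd300c2. On chromosome 1, Pla2g4a and Ptgs2 lay in a run of 4 with the antisense transcripts Ptgs2os and Ptgs2os2, whose reads cannot be told apart from those of an overlapping gene where strand was not used in counting. Many of the neighbours named here are members of one family, whose reads may be shared. Among the chemokine and Cd300 genes named, the share of 31-base words found in other genes was highest for Cd300c2 (12.3%). It was 7.59% for Cxcl2 and 0.00% for Ccl2, Ccl7, Ccl12, Ccl3 and Ccl4. Other runs held genes of different families, such as a run of 7 falls on chromosome 1 from Nemp2 to Osgepl1. Over all genes tested 17.8% were called higher and 22.8% lower by at least 1. The number of runs to expect from these shares was not computed, and no test of clustering was made.

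The same treatment with siRNA against Brg1 shares no library with this comparison. Smarca4 had 365, 358 and 340.2 normalized counts in the vehicle libraries and 621, 559.5 and 600.1 in the LPS libraries of that arm, against 1476, 1538 and 1626 and 2989.8, 2899 and 2751 with control siRNA. A test of the difference between the responses (the interaction, positive where the value with Brg1 siRNA is higher) called 1380 genes (11.4%), 771 higher (6.39%) and 609 lower (5.05%), and 762 and 565 without the libraries of the MUC18 number range. With plain library totals the balance turned, with 567 higher and 921 lower. Of the 4896 genes that changed by at least 1 with control siRNA, 765 were called in the interaction with the authors' size factors. In 436 the interaction had the opposite sign to the control siRNA change (a smaller or a reversed response). In 329 it had the same sign (a larger response). The control siRNA libraries enter both the choice of these genes and the interaction, which by itself favours opposite signs. By role and with the authors' size factors, 10 of 54 interferon-stimulated genes and 5 of 14 GTPases had a lower value in the interaction and 0 a higher one, and 10 of 28 glycolysis genes were lower and 1 higher. Of 29 cytokine genes 11 were higher and 2 lower, and of 14 NF-kappaB genes 6 were higher and 0 lower. With plain library totals the lower counts were 17 interferon-stimulated genes, 7 GTPases (0 higher in either) and 13 glycolysis genes (1 higher), and the cytokine genes gave 10 higher and 3 lower and the NF-kappaB genes 4 and 1. Pfkfb3, a regulator of glycolysis, rose by 3.39 with control siRNA (321, 359 and 322 to 3501, 3361 and 3669.8) and by 0.65 with Brg1 siRNA (622, 556 and 553 to 914, 879.8 and 913), a difference of -2.75 (SE 0.115, limma adjusted p = 5.86e-11). Dusp5, a phosphatase of ERK, did not pass with control siRNA (115, 99.4 and 101 and 163, 127 and 112) and rose with Brg1 siRNA (36.7, 18.0 and 26.4 and 282, 274 and 252), a difference of 2.99 (limma adjusted p = 1.36e-06).

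**Figure D5:**
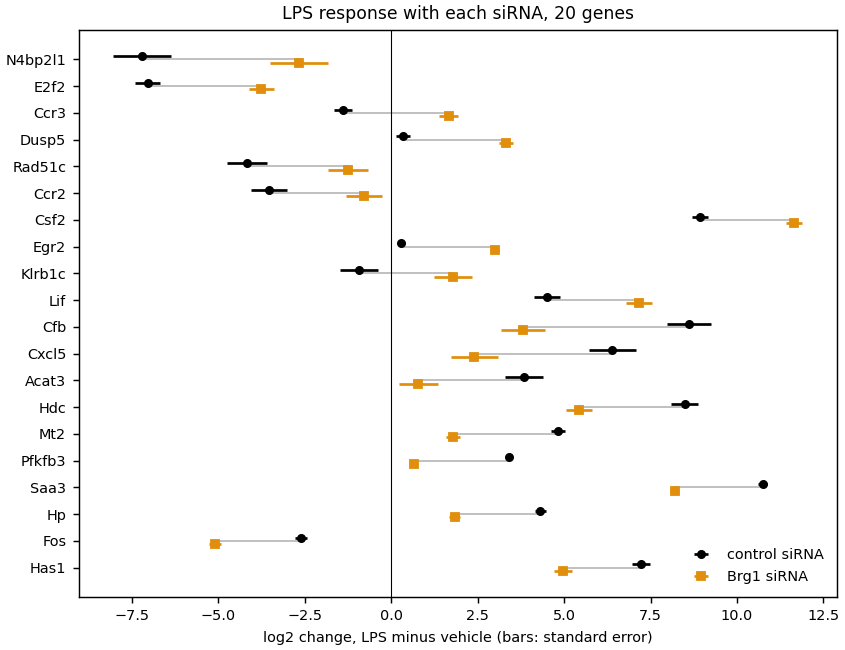
LPS response (log2 change with its standard error) with control siRNA (circles) and Brg1 siRNA (squares) for the 10 largest differences in each direction among the named genes. The line between the symbols is the difference, from 4.53 for N4bp2l1 to -4.82 for Cfb.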

How the data were processed

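RNA of 20 libraries from bone marrow-derived macrophages was sequenced after a TruSeq Stranded mRNA library preparation, for which the labels' protocols also name rRNA depletion, from 500 ng of RNA. The submitters' processing notes name Salmon 1.4.0, DESeq, DESeq2, R 4.1.0 and the builds mm10 and GRCm38.p6. Whether reads were counted by strand is not given in the sources used here. The deposited values are a signal, read counts that the authors divided by a size factor per library, per the file headers and the values: multiplied by the size factor, 99.95% of 278705 values above 0 came within 0.01 of a whole number. The deposited table also gives the authors' log2 fold change, its standard error (another unit) and an adjusted p-value for each comparison, per the file headers. Precision is limited by 3 libraries per group.

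Genes reaching 10 normalized counts in 3 or more of the 20 libraries (12061 of 17787) were tested on log2(normalized count + 1) with limma 3.58.1 (trend) in R 4.3.3, with all 6 groups in 1 fit, and p-values were adjusted by the Benjamini-Hochberg method. The script was tested on simulated data. Read counts recovered from the values were tested with edgeR 4.0.16 and DESeq2 1.42.0 as alternatives. Other alternatives were the pseudocount (0.5 and 5), the filter (none and 50), the 6 libraries alone, plain library totals, TMM factors, a block on the replicate number, and leaving out libraries. A floor of 3 reads per group was used for genes at 0, and 95% intervals of ratios are exact binomial intervals that cover counting error only.

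The genes named are the 20 largest rises and 20 largest falls, up to 6 members per direction and 4 that did not pass in each of 43 gene lists (every member of a list of 20 or fewer), a set of mediators and receptors, the 15 largest gains and 15 largest losses of share, genes at 0 in 1 group, members of runs of at least 4 neighbours, genes that range from 0 to 100 or more within a group, and the 10 largest interactions in each direction. Members and lists were chosen with earlier results of these data known, and a few of the other list members named were chosen after their values were seen. Gene coordinates are those of GENCODE M21 (GRCm38), and promoters those of RefSeq (GRCm38.p6), matched by symbol for 9368 genes. Shares of 31-base words were computed over GENCODE transcripts. Some of the genes chosen by the rule are not reported here.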

Additional observations from a re-analysis of the deposited data

Results flagged for a closer look

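The responses to LPS differed between the siRNA arms, by the interaction test of limma, in 1380 genes. In the genes named by rule, the value was higher with Brg1 siRNA (a weaker fall, a turn from fall to rise or a larger rise) for N4bp2l1 by 4.53 on the log2 scale, E2f2 by 3.29, Ccr3 by 3.06, Dusp5 by 2.99, Rad51c by 2.92, Ccr2 by 2.75, Csf2 by 2.72, Egr2 by 2.72, Klrb1c by 2.71 and Lif by 2.66. It was lower for Cfb (-4.82), Cxcl5 (-3.98), Acat3 (-3.06), Hdc (-3.05), Mt2 (-3.04), Pfkfb3 (-2.75), Saa3 (-2.55), Hp (-2.48), Fos (-2.48) and Has1 (-2.27). Limma adjusted p-values ran from 5.86e-11 (Pfkfb3) to 0.0292 (Klrb1c). Ccr3, a chemokine receptor, fell with control siRNA by 1.40 and rose with Brg1 siRNA by 1.66. Csf2, Lif, E2f2, Rad51c, Cxcl5, Acat3 and Has1 had 3 reads or fewer in at least 1 control siRNA group, so the size of their values depends on the pseudocount. For Cfb and Acat3, 75.5% and 46.9% of the 31-base words occur in other genes as well. N4bp2l1 rests on control siRNA LPS values of 0, 34.7 and 0, where 1 library stands apart (SE of the difference 1.17), and was not called without the libraries of the MUC18 number range (3.60, limma adjusted p = 0.0990). Klrb1c and Rad51c, both at low counts, lost their call for 7 and 6 of the 12 libraries when each was left out in turn (limma adjusted p of 0.0507 to 0.0821 and 0.0514 to 0.0738). By edgeR on recovered reads, Acat3, Csf2, Cxcl5, Has1 and Lif were not called (adjusted p of 0.214 to 1.00). Single values within a group of 3 were not tested for standing apart, and leaving out each library is the check given.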

How the results depend on the processing

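With plain library totals 2434 genes were called higher and 6850 lower, and of 9284 calls 6898 were in the same direction as with the authors' size factors and 364 opposite. The interaction then gave 567 higher and 921 lower. Of 270 genes named in the text, 9 changed sign with plain totals, of which Dusp5 (-0.24) was called under neither scaling and 8 under at least 1: Abca1 (-0.32), Aif1 (-0.36), B2m (-0.36), Egr2 (-0.30), Ifit3b (-0.52), Irf7 (-0.10), Myc (-0.55) and Oas2 (-0.38), of which Abca1, Aif1, B2m, Ifit3b, Myc and Oas2 had not been called. Requiring a change of at least 1 left 2152 genes higher and 2744 lower. In the LPS response with control siRNA no opposite call arose under the other alternatives run, and opposite calls were not counted for the interaction. Counts over all genes stayed within 1.5 times of those reported under these alternatives. Counts of gene lists moved by more than that in 30 cases when a change of at least 1 was required and in 20 with plain totals. Under other alternatives CC chemokines lower went from 2 to 0 with the filter of 50, and the other moves, beside those given with their lists, were in marker and mitochondrial lists with counts of 0 to 2. Leaving out 1 of the 6 libraries at a time gave 4119 to 4185 genes higher and 4220 to 4267 lower, and leaving out 1 of the 12 libraries of the interaction gave 578 to 744 higher and 453 to 580 lower. Same-numbered vehicle and LPS libraries correlated at 0.01, 0.079 and 0.041 in their deviations, and libraries of unlike numbers at -0.069 to 0.028. LPS replicate 1 correlated best with vehicle replicate 3, and LPS replicates 2 and 3 with the vehicle library of their own number. All these values were small, and they do not settle whether the replicate numbers pair the samples. With the replicate block 4424 genes were higher and 4508 lower, and 856 and 684 in the interaction. The cause of these differences was not tested. Gbp4 was called by DESeq2 and edgeR and not by limma. Depth limits genes at 3 reads or fewer in a group, where only a bound or a wide interval can be given.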
